A study of Mus musculus with 24 samples.

Results

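The suppressor of cytokine signalling (SOCS) family was followed here as 8 genes, Socs1 to Socs7 and Cish, in sorted mouse blood progenitors with and without the leukaemia fusion MLL::ENL. Its members were taken by gene symbol from the deposited count table, which gave 8 of the 55487 distinct Ensembl genes, and all 8 passed the filter on low counts. The family was chosen from results of these data: it was selected on the fall of Socs2 with the fusion at birth, so the values of that contrast are given as a description with no test. The study holds 24 RNA-seq libraries in 6 groups of 4, described as biological replicates, of cells labelled LSK (lineage-negative, Sca-1-positive, KIT-positive), while the design text speaks of lineage-negative KIT-positive progenitors. At postnatal day 0 (P0) the cells came from liver, either wild type (WT) or carrying human MLL::ENL (ME) under Tet-off control induced on embryonic day E10.5. At postnatal day 28 (P28) they came from bone marrow, in 4 groups: WT, ME induced at E10.5, ME induced at P0, and ME induced at E10.5 with the added label RLT Vav Txp, which the labels do not spell out and which is kept here as a name. The titles of RLT Vav Txp libraries 1 and 2 open with the same number, whose meaning is not given, so these libraries may share a source. The promoter that drives the Tet-off element is not given in the sources used here, and the human fusion itself is not a feature of the table and was not analysed here. Liver was sampled at P0 and marrow at P28, so age and tissue cannot be told apart.

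Cytokine receptors without a kinase of their own signal through JAK kinases, which phosphorylate the receptor and then STAT transcription factors. STATs enter the nucleus and switch on, among others, genes of the SOCS family, whose proteins bind the receptor or the kinase and block it or send it for degradation. Each member has an SH2 domain, which binds phosphotyrosine, and a SOCS box, which recruits the Elongin BC and Cullin ubiquitin ligase. In blood progenitors this loop limits responses to thrombopoietin, erythropoietin, interleukins, colony-stimulating factors and interferons.

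CIS, encoded by Cish, and SOCS2 are induced chiefly through STAT5, SOCS3 chiefly through STAT3 and SOCS1 chiefly by interferon. The STAT site searched for in their promoters was TTCNNNGAA, which reads the same on both strands, in windows from 250 bases before to 50 bases after the RefSeq start (GRCm38.p6). RefSeq entries were matched for 4 of the 8 members, Cish, Socs1, Socs3 and Socs4. The motif occurs in 8.3% of the 32851 promoters of that length. The Cish and Socs3 windows are printed because they hold it, with the matches in capitals. The Cish window lies at chr9:107296409-107296708 on the plus strand and the Socs3 window at chr11:117969317-117969616 on the minus strand.
Cish: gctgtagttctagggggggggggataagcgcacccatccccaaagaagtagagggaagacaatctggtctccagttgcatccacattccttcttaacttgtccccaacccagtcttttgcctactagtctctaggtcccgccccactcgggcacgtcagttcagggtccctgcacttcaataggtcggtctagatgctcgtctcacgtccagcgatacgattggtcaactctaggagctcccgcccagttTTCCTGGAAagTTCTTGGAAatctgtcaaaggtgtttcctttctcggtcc
Socs3: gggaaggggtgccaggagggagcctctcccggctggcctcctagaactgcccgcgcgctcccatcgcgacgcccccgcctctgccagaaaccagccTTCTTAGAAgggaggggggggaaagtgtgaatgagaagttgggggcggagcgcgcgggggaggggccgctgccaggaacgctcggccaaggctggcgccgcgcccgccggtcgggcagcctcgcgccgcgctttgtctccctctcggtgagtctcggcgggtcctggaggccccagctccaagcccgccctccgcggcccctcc
Cish held 2 matches, TTCCTGGAA starting at base 1 and TTCTTGGAA starting at base 12, counted from the RefSeq start. Socs3 held 1, TTCTTAGAA, starting 154 bases before it. The Socs1 and Socs4 windows held no match, and no window of the other members is reported.

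Library depth ran from 31233688 to 89774511 counts, so 1 CPM (counts scaled to library size) stood for 31.2 reads in the smallest library. Levels below are CPM after TMM scaling, given for libraries 1 to 4 of a group, with mean ± SD over n = 4. All 12 LSK markers were detected in each group, and their summed CPM was 5070 to 6190 over P28 WT and the ME groups induced at E10.5 and at P0, 2820 to 3830 in RLT Vav Txp and 2700 to 5780 at P0. Summed macrophage markers (12 genes) were 825 to 3450 in RLT Vav Txp against 88.2 to 128 in P28 WT. At P0 the libraries numbered 1 stood apart from the other 6. Their summed neutrophil markers (10 genes) were 890 in WT and 832 in ME against 11200 to 37600 in the others, and their erythroid sums (10 genes) were 723 and 342 against 5560 to 18100. The fold changes and list counts that rest on P0 libraries are therefore also given without both of them.

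Per kb of exon, where genes can be compared with each other, the family summed to 36.7 ± 5.71 CPM per kb in P0 WT and 30.8 ± 3.28 in P0 ME. At P28 the sums were 37.7 ± 6.0 in WT, 44.0 ± 1.43 in ME induced at E10.5, 49.4 ± 3.8 in ME induced at P0 and 38.0 ± 9.47 in RLT Vav Txp. Socs5, known for restraining EGF receptor and interleukin-4 signalling, was first in 4 groups, with 29.4% of the family sum in P0 ME, 31% in P28 WT, 40.1% in P28 ME induced at E10.5 and 33.1% in P28 ME induced at P0. Socs1 was first in P0 WT, at 21.9%, and in RLT Vav Txp, at 24.5%. Socs7 was last in every group, at 1.05% to 2.44%. Socs2 went from second place in P0 WT, at 20.6%, to sixth in P0 ME, at 5.79%, a change that the choice of the family had used.

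**Figure D1:**
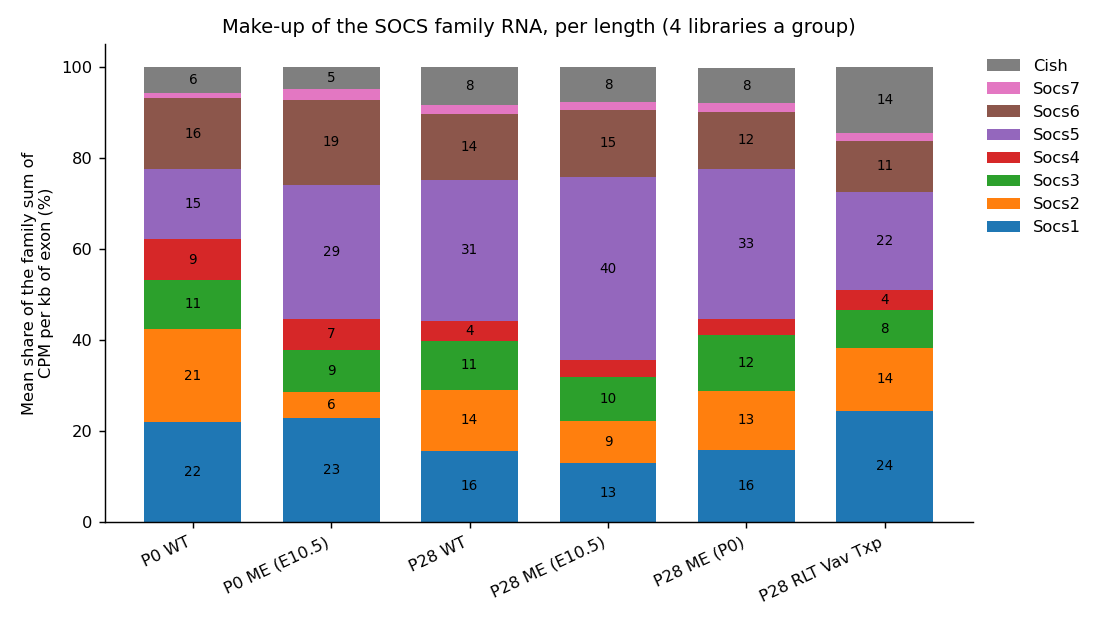
Mean share of each SOCS gene in the family sum of CPM per kb of exon (vertical axis, %) in the 6 groups of 4 libraries (horizontal axis). Socs2 took 20.6% of it in P0 WT but 5.79% in P0 ME. Socs5 took 40.1% in P28 ME induced at E10.5.

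Socs2 (chr10:95385362-95417180, minus strand, GRCm38; ENSMUSG00000020027) restrains growth hormone and cytokine signalling through STAT5. In P0 WT it stood at 69.3, 73.6, 59.1 and 82.5 CPM (71.1 ± 9.71, SD, n = 4). In P0 ME it stood at 9.02, 15.6, 18.8 and 23.1 (16.6 ± 5.94). Every P0 ME library lay below every P0 WT library, and the highest ME library was well under the lowest WT one. The fitted level was 4.28-fold lower with ME (log2 fold change -2.10), a value that ran from -2.34 to -1.89 as each library was left out in turn and was -1.90 without both libraries numbered 1. In bulk samples such as these, fewer cells of a type and less RNA per cell cannot be told apart.

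Socs2 was the only member whose P0 libraries did not overlap between WT and ME. Over all 23059 genes tested, 3.74% did not overlap in that contrast, and nothing is read from the 1 of 8, since the contrast chose the family. The other members differed by -0.29 (Socs1), -0.49 (Socs3), -0.62 (Socs4), 0.72 (Socs5), 0.07 (Socs6), 1.01 (Socs7) and -0.52 (Cish) on the log2 scale, with overlapping libraries. Without both libraries numbered 1 they were -0.42, -0.96, -0.47, 0.37, 0.05, 1.02 and -0.62, in the same order. Summed markers of other cells also had different ranges by genotype, with overlapping libraries. Mast cell and basophil markers (8 genes) had sums of 605 to 5880 CPM for WT and 53.9 to 611 for ME. Neutrophil sums ran from 890 to 18200 for WT and from 832 to 37600 for ME. The part of these cells in the Socs2 difference was not tested. Between the libraries numbered 1, where neutrophil, erythroid and macrophage sums were lowest, Socs2 was 69.3 in WT and 9.02 in ME. Their mast cell and basophil sums lay furthest apart, the highest for WT at 5880 CPM and the lowest for ME at 53.9.

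**Figure D2:**
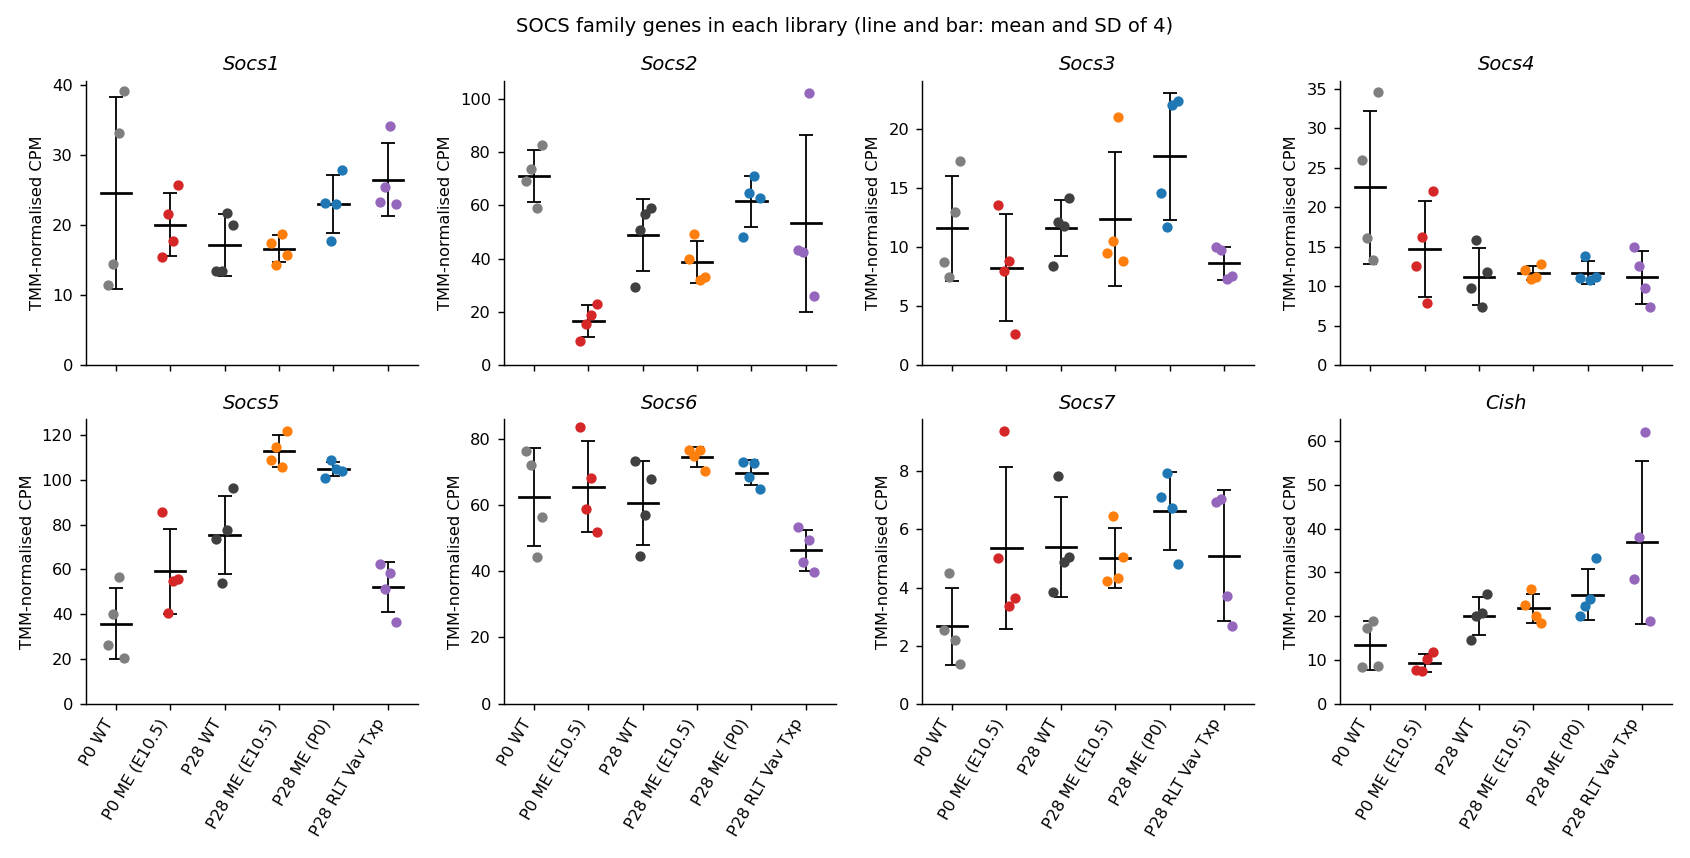
TMM-normalised CPM (vertical axis, from 0) of the 8 genes in each library (points), with group mean and SD (lines and bars), in the 6 groups (horizontal axis). The 4 P0 ME libraries of Socs2 sit between 9.02 and 23.1, below the 4 P0 WT libraries at 59.1 to 82.5.

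**Figure D3:**
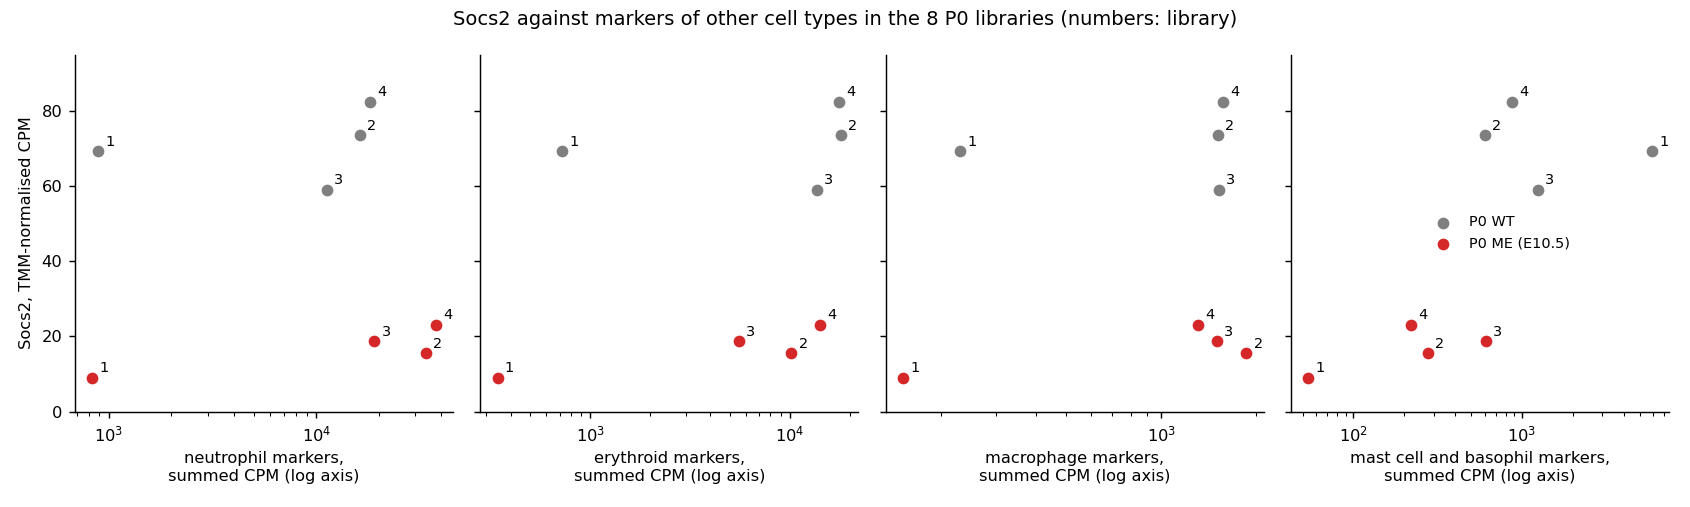
Socs2 CPM (vertical axis) against the summed CPM of 4 lists of markers of other cell types (horizontal log axes) in the 8 P0 libraries, numbered by library. The WT and ME libraries numbered 1 sit far left on the neutrophil, erythroid and macrophage axes, at Socs2 levels of 69.3 and 9.02. On the mast cell and basophil axis they sit at opposite ends, 5880 CPM in WT and 53.9 in ME.

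At P28, Socs2 stood at 29.4, 50.6, 56.7 and 58.9 CPM in WT (48.9 ± 13.4). In ME induced at E10.5 it stood at 40.0, 49.3, 31.9 and 33.2 (38.6 ± 7.95), and the groups overlapped. The fitted difference was -0.34 (95% interval -0.97 to 0.29), which did not pass the test (edgeR quasi-likelihood, Benjamini-Hochberg adjusted p = 0.515). Whether the effect of ME on Socs2 differed between P0 and P28 was not tested, because the P0 contrast chose the gene. ME induced at P0 gave 48.1, 64.5, 70.9 and 62.6 CPM (61.5 ± 9.6), 0.33 above WT on the log2 scale (adjusted p = 0.594, edgeR). Against ME induced at E10.5 it was 0.67 higher (interval 0.04 to 1.31, unadjusted p = 0.0387, edgeR adjusted p = 1.0), with overlapping libraries. The limma voom fit and the fit of these groups alone did call this difference, at adjusted p = 0.0298 and 0.0117.

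RLT Vav Txp gave the widest spread of Socs2, 43.2, 42.4, 102 and 25.9 CPM (53.3 ± 33.2). Its direction turned on single libraries. The difference from WT was 0.12, but -0.39 without library 3 and -0.06 without P28 WT library 1. The difference from ME induced at E10.5 was 0.46, but -0.06 without library 3. Neither passed the test (adjusted p = 0.927 and 0.324, edgeR). With age, the difference of P28 from P0 was -0.54 in WT and 1.22 in ME induced at E10.5, with no overlap in either pair. In WT the gap was narrow, from 58.9 CPM at P28 to 59.1 at P0. Of 23059 genes tested, 1127 lay wholly higher and 1011 wholly lower at P28 in WT, and 3317 and 2529 in ME. Without both P0 libraries numbered 1 the Socs2 differences were -0.55 and 1.01. Both share libraries with the contrast that chose the gene and have no test. In order of mean level the groups ran P0 WT, P28 ME induced at P0, RLT Vav Txp, P28 WT, P28 ME induced at E10.5 and P0 ME, and only the last neighbours, P28 ME induced at E10.5 and P0 ME, did not overlap.

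Across the 7 comparisons that could be tested, 5 calls fell on 3 genes, Socs5, Socs6 and Cish, at an adjusted p under 0.05. With age in ME (P28 against P0, both induced at E10.5), 2 of the 7 tested members rose, Socs5 and Cish, where 18.2% of all genes passed the test, 9.79% higher and 8.45% lower. In WT the same age step raised 1 of 7, Socs5, where 7.68% of all genes passed, 3.12% higher and 4.56% lower. RLT Vav Txp against ME induced at E10.5 had 2 of 8 lower, Socs5 and Socs6, where 17.9% of all genes passed, 8.5% higher and 9.38% lower. These shares of members are to be read against those of all genes.

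None of the 8 passed the test in the other 4 comparisons. For ME induced at E10.5 against WT at P28, edgeR called 0 members (1 at unadjusted p under 0.05, 0 by DESeq2, 1 by limma voom), where 12.3% of all genes passed, 7.82% higher and 4.44% lower. With induction at P0 against WT it called 0 (0 unadjusted, 0 by DESeq2, 1 by limma voom), where 1.57% of all genes passed, 0.494% higher and 1.08% lower. Between the induction times, P0 against E10.5, it called 0 (1 unadjusted, 0 by DESeq2, 2 by limma voom), where 0.0477% of all genes passed, 0.026% higher and 0.0217% lower. For RLT Vav Txp against WT it called 0 (4 unadjusted, 0 by DESeq2, 1 by limma voom), where 4.12% of all genes passed, 2.64% higher and 1.48% lower. The split of all calls moved with the scaling. Of the calls for ME induced at E10.5 against WT, 63.8% were higher under TMM, 52.2% under RLE factors and 33.3% under plain library totals. Induction at P0 against WT had shares of 31.5%, 13.8% and 14.4%. The same 3 scalings gave 64.0%, 61.7% and 53.3% in RLT Vav Txp against WT, and 40.6%, 44.1% and 56.8% with age in WT. RLT Vav Txp against ME induced at E10.5 had 47.5%, 54.0% and 54.4%. Age in ME had 53.7%, 45.7% and 44.3%. The median of all genes moved by over 0.1 under plain totals in 3 comparisons: from -0.10 to -0.23 for ME induced at E10.5 against WT, from -0.02 to 0.09 between the induction times and from -0.07 to 0.08 for age in WT.

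**Figure D4:**
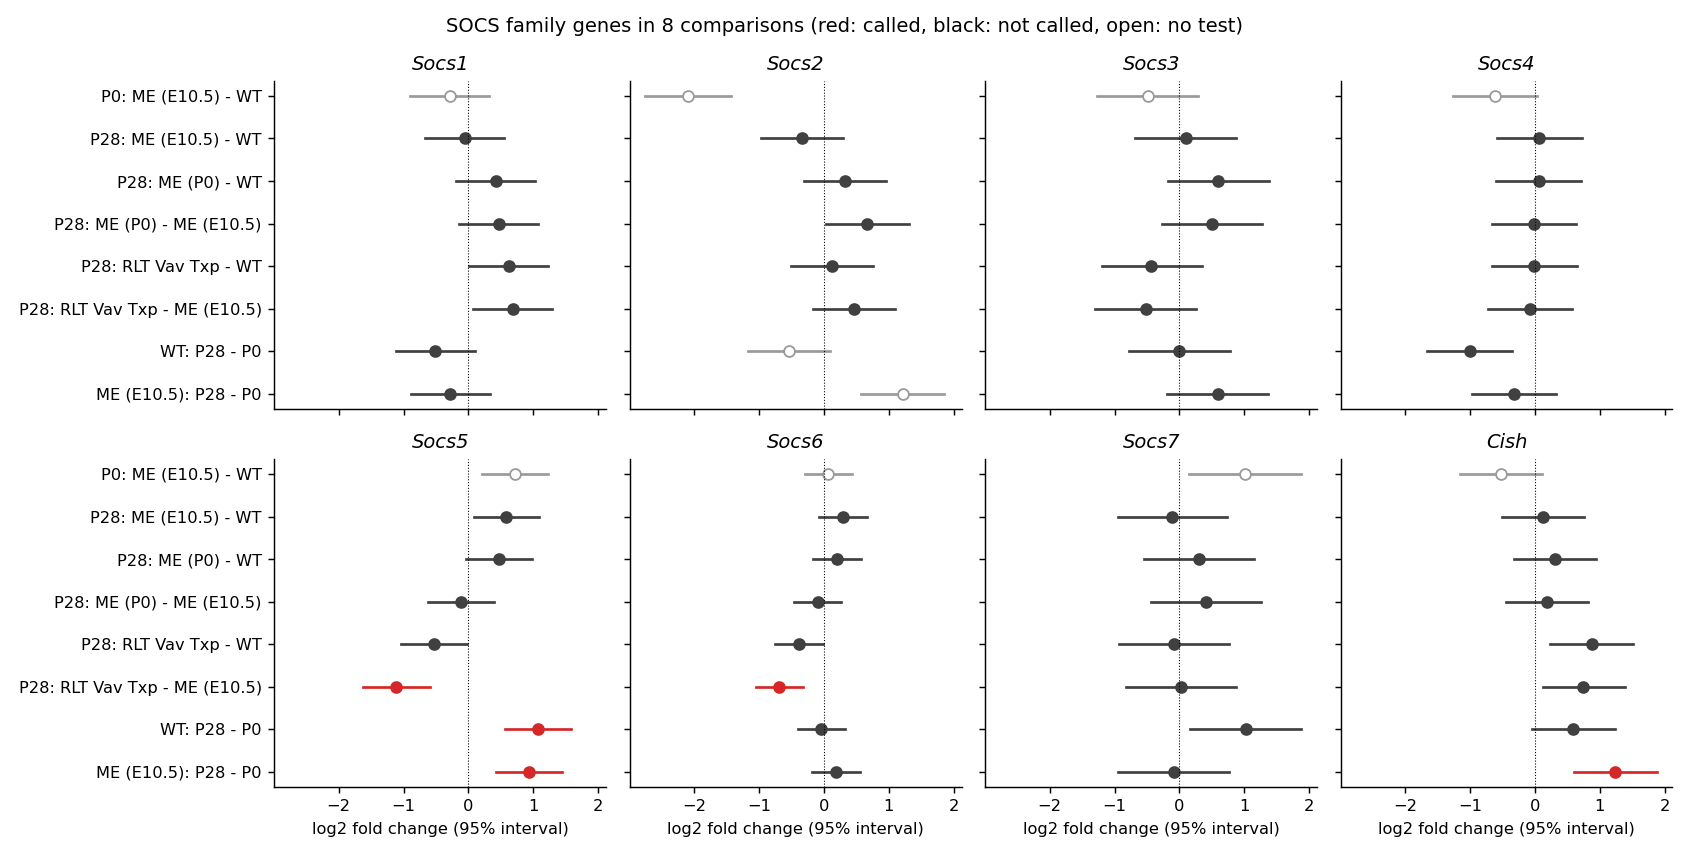
Log2 fold change with its 95% interval (horizontal axis) of the 8 genes in 8 comparisons (vertical axis), red where called, black where not called and open where no test applies. Socs5 carries 3 of the 5 calls, from -1.11 in RLT Vav Txp against ME induced at E10.5 to 1.07 with age in WT.

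Cish (chr9:107296026-107302784, plus strand; ENSMUSG00000032578) encodes CIS, the founding member, which binds STAT5-docking receptors such as those for erythropoietin and interleukin-2. P0 ME libraries stood at 7.72, 7.38, 10.1 and 11.7 CPM (9.25 ± 2.07). P28 ME libraries induced at E10.5 stood at 22.6, 26.2, 20.1 and 18.5 (21.8 ± 3.36), all above the P0 ones. Cish rose 2.36-fold (log2 fold change 1.24, SE 0.31, edgeR adjusted p = 0.00723), a call that held in all alternatives and in each fit without 1 library. Without both P0 libraries numbered 1 it was 1.17 (adjusted p = 0.0142). In WT the step was from 8.31, 17.2, 18.9 and 8.68 (13.3 ± 5.56) to 14.5, 20.0, 20.7 and 25.1 (20.0 ± 4.35). Those groups overlapped, and the difference of 0.59 did not pass the test (adjusted p = 0.271, edgeR), nor did that of 0.42 without both libraries numbered 1 (adjusted p = 0.434). Whether the age step differed between WT and ME was not tested.

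ME induced at P0 gave 20.0, 22.2, 24.0 and 33.3 CPM of Cish (24.9 ± 5.84), which overlapped P28 WT. RLT Vav Txp had the highest mean, from libraries at 28.4, 38.1, 62.2 and 18.9 (36.9 ± 18.6). Its difference from WT was 0.88 (interval 0.24 to 1.52, unadjusted p = 0.00896, edgeR adjusted p = 0.127) and from ME induced at E10.5 it was 0.75 (adjusted p = 0.0925). Library 3 was the highest for Cish as it was for Socs2, and library 4 the lowest for both. The limma voom fit called the difference from WT (0.97, adjusted p = 0.0375), and no other alternative did. DESeq2 and limma voom called Cish against ME induced at E10.5 (adjusted p = 0.0405 and 0.00553), and so did edgeR without library 4 (0.0414). The exons of Cish overlap those of Gm17040 on the opposite strand, at a mean of 15 counts a library, and the strand setting of the counting is not given in the sources used here.

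Socs1 (chr16:10782240-10785536, minus strand; ENSMUSG00000038037), which blocks JAK kinases directly and limits interferon-gamma responses, was called by edgeR in no comparison. P28 WT libraries stood at 13.4, 13.5, 21.8 and 20.1 CPM (17.2 ± 4.39), and RLT Vav Txp libraries at 23.3, 25.5, 34.2 and 23.1 (26.5 ± 5.2), just above the highest WT library. Of 23059 genes tested, 1619 lay wholly above WT in RLT Vav Txp and 1025 wholly below. Against ME induced at E10.5, 2665 lay wholly above and 3263 wholly below. The Socs1 difference of 0.62 from WT did not pass the test (adjusted p = 0.315, edgeR). Nor did that of 0.68 from ME induced at E10.5 (16.6 ± 1.93, edgeR adjusted p = 0.117), whose libraries also lay lower. The last difference was called by limma voom (adjusted p = 0.00605) and in the 2 groups alone (0.0114). ME induced at P0, at 23.0 ± 4.14, was 0.47 above ME induced at E10.5 (edgeR adjusted p = 1.0), which the same fits called (0.0473 and 0.0441). The P0 WT libraries of Socs1 spread from 11.4 to 39.2 CPM, wider than any other group. With age in WT its difference was -0.51, and -0.75 without both P0 libraries numbered 1 (edgeR adjusted p = 0.0774). All neighbouring groups in the order of means overlapped.

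Socs3 (chr11:117966079-117970047, minus strand; ENSMUSG00000053113), which binds gp130 and the G-CSF receptor and limits interleukin-6 and G-CSF responses, was called in no comparison. Its means ran from 8.26 ± 4.52 CPM in P0 ME to 17.7 ± 5.37 in ME induced at P0, with libraries of 14.6, 11.7, 22.1 and 22.4 in the latter. Against P28 WT, at 8.44, 12.1, 11.8 and 14.2 (11.6 ± 2.38), the difference was 0.60 (interval -0.17 to 1.38, adjusted p = 0.387, edgeR), and the libraries overlapped. Its P0 WT libraries stood at 8.73, 7.47, 13.0 and 17.3 CPM, beside neutrophil sums of 890, 16200, 11200 and 18200. In P0 ME they stood at 13.6, 7.97, 8.80 and 2.62, beside sums of 832, 33800, 19000 and 37600. The ME library with the lowest neutrophil sum had the most Socs3 of its group and the one with the highest sum the least, an order that the WT libraries did not share.

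Socs5 (chr17:87107679-87137839, plus strand; ENSMUSG00000037104) changed most often. P0 WT libraries stood at 26.4, 40.0, 56.4 and 20.5 CPM (35.8 ± 16.0), and P28 WT libraries at 73.8, 53.9, 77.5 and 96.4 (75.4 ± 17.4). Only 1 P0 library, at 56.4, reached the lowest P28 one. Socs5 rose 2.10-fold with age in WT (log2 1.07, SE 0.25, edgeR adjusted p = 0.00779) and 0.95 without both P0 libraries numbered 1 (adjusted p = 0.0122). The fit of these 2 groups alone ended the call (adjusted p = 0.104). In ME induced at E10.5 it rose from 85.6, 40.5, 54.9 and 55.6 at P0 (59.2 ± 19.0) to 109, 115, 106 and 122 at P28 (113 ± 7.24), without overlap. That was 1.91-fold (log2 0.93, SE 0.25, adjusted p = 0.0102, edgeR), and 1.17 without both libraries numbered 1 (adjusted p = 0.00156). Summed erythroid markers were 723 to 18100 CPM in P0 WT and 342 to 14200 in P0 ME against 441 to 814 in P28 WT and P28 ME induced at E10.5, and their part in the age differences was not tested.

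ME induced at P0 had Socs5 at 101, 109, 105 and 104 CPM (105 ± 3.2). Both these libraries and those of ME induced at E10.5 lay above all P28 WT libraries. Of 23059 genes tested, 3310 lay wholly above WT and 2404 wholly below with ME induced at P0. With ME induced at E10.5, 3823 lay wholly above and 2673 wholly below. The Socs5 differences from WT, 0.47 and 0.58, did not pass the test (adjusted p = 0.284 and 0.122, edgeR). The limma voom fit called them, at adjusted p = 0.00986 and 0.00189, and the fits of only the 2 groups compared did too, at 0.0346 and 0.0143. RLT Vav Txp libraries stood at 62.3, 51.3, 58.4 and 36.7 (52.2 ± 11.3), all below those of ME induced at E10.5. Socs5 was 2.17-fold lower there (log2 -1.11, SE 0.25, adjusted p = 0.00364, edgeR), a call that held in every alternative and every fit without 1 library. Against WT the difference of -0.53 did not pass (adjusted p = 0.294).

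Socs6 (chr18:88665224-88927481, minus strand; ENSMUSG00000056153) binds KIT and FLT3 and limits their signals. In RLT Vav Txp it stood at 53.5, 43.0, 49.4 and 39.7 CPM (46.4 ± 6.22) and in ME induced at E10.5 at 76.7, 74.8, 76.7 and 70.4 (74.7 ± 2.96). The groups did not overlap, and Socs6 was 1.61-fold lower in RLT Vav Txp (log2 -0.69, SE 0.18, edgeR adjusted p = 0.0102). Without RLT Vav Txp library 4 the value was -0.59 and the call ended (adjusted p = 0.0574). In the other groups its means stayed between 60.8 and 69.9 CPM, with no call. Beside the lower Socs5 and Socs6, RLT Vav Txp carried summed macrophage markers of 825 to 3450 CPM against 57.4 to 90.3 in ME induced at E10.5, and LSK sums of 2820 to 3830 against 5360 to 6190, and their part in the result was not tested.

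Socs4 (chr14:47276931-47296102, plus strand; ENSMUSG00000048379), a regulator of EGF receptor signalling, had its highest level in P0 WT, at 26.0, 16.1, 13.3 and 34.6 CPM (22.5 ± 9.73). P28 WT libraries stood at 9.76, 15.9, 7.35 and 11.8 (11.2 ± 3.63), with overlap. The difference of -1.0 (interval -1.66 to -0.35) lay at an adjusted p = 0.0533 in edgeR and passed in DESeq2 (0.0235), without P0 WT library 3 (0.0288) and without P28 WT library 2 (0.0441). Without both P0 libraries numbered 1 it was -0.93 (adjusted p = 0.0846). Its means at P28 were 11.1 to 11.7 CPM in all 4 groups. Socs7 (chr11:97362551-97398542, plus strand; ENSMUSG00000038485), which acts on insulin signalling, was the weakest member, at 2.66 ± 1.32 CPM in P0 WT and 5.02 to 6.65 as means at P28. Its difference with age in WT was 1.02 (adjusted p = 0.143, edgeR; 1.00 and 0.174 without both P0 libraries numbered 1), from libraries of 2.55, 4.5, 2.2 and 1.37 to 3.83, 7.86, 4.88 and 5.04, which overlapped.

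The genes that SOCS proteins act on and answer to were read from lists in which up to 4 called genes are named. Of 10 JAK kinase and STAT genes, 6 rose with ME induced at E10.5 against WT at P28 and none fell. The median log2 fold change was 0.74 against -0.10 over all genes, of which 12.3% passed the test, 7.82% higher and 4.44% lower. Stat3, the STAT that induces Socs3, rose 0.92 (adjusted p = 0.00454), Stat5a, which induces Cish and Socs2, 0.75 (0.0127), Jak3, the kinase of the common gamma chain, 0.77 (0.0171), and Jak2, the kinase of the thrombopoietin receptor, 0.74 (0.0176), all by edgeR. The 6 became 4 under RLE factors and 1 under plain totals, 2 without P28 WT library 1, 1 without P28 WT library 2 and 2 without library 3 of ME induced at E10.5. With ME induced at P0 against WT, Stat3 alone rose (0.91, edgeR adjusted p = 0.0308), where 1.57% of all genes passed. No gene of the list was called in 7 of the 8 fits without 1 library, while limma voom and the 2 groups alone called 9. RLT Vav Txp against ME induced at E10.5 had 5 of 10 lower and none higher (median -0.69 against 0.12), where 17.9% of all genes passed. The smallest adjusted p values were those of Jak3 (-1.17) and Stat4 (-0.76), and the alternatives gave 4 to 9 calls. The macrophage sums of 825 to 3450 CPM against 57.4 to 90.3, and LSK sums of 2820 to 3830 against 5360 to 6190, moved with this comparison, and their part in the lower list genes was not tested.

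**Figure D5:**
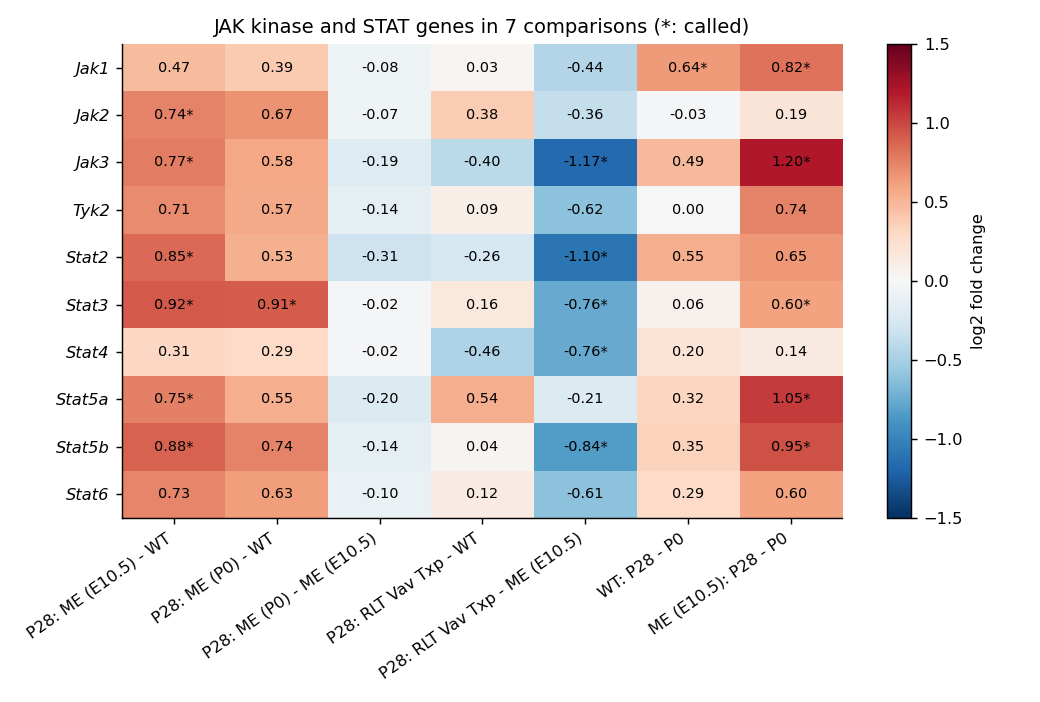
Log2 fold changes (colour and printed value) of the 10 JAK kinase and STAT genes (vertical axis) in the 7 tested comparisons (horizontal axis), with a star where the adjusted p was under 0.05. Stars fill 6 of 10 cells for ME induced at E10.5 against WT, all higher, and 5 of 10 for RLT Vav Txp against ME induced at E10.5, all lower. Of all genes tested, 12.3% and 17.9% passed in these comparisons.

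With age, 5 of the 10 rose in ME (median 0.69 against -0.18 over all genes), among them Jak3 at 1.20, Stat5a at 1.05 and Stat5b at 0.95. In WT 1 rose, Jak1, at 0.64, and no gene of the list was called in 5 of the 8 fits without 1 library (P0 WT library 2 or 4, P28 WT library 1, 3 or 4). The age count in ME was 3 without P0 ME library 2 and 3 without P0 ME library 4. Of 14 STAT5 target genes, 3 rose and 4 fell with age in ME (median 0.18 against -0.18 over all genes, of which 18.2% passed). Myc, a driver of growth, rose 1.61 (213 to 650 CPM) and Ccnd2, a cell cycle gene, rose 0.88, while Id1, a repressor of differentiation factors, fell by 3.02 on the log2 scale. In WT 1 rose and 4 fell (median -0.25 against -0.07, where 7.68% of all genes passed), with Bcl2l1, a survival gene, at -1.52. That split was 3 higher and 4 lower under plain totals, and the 5 calls became 8 by DESeq2 and 3 in the 2 groups alone. Of 9 tested STAT3 targets, 4 fell in ME and 5 in WT with age, Cebpd and Fos among them in each, with medians of 0.09 and -0.81. Limma voom called 3 in WT. Without both P0 libraries numbered 1, the calls in ME and WT were 6 and 1 for JAK and STAT genes, 7 and 6 for STAT5 targets and 4 and 5 for STAT3 targets. Neutrophil sums were 656 to 1770 CPM over P28 WT and the ME groups induced at E10.5 and at P0, below 6 of the 8 P0 libraries, and their part in these age differences was not tested.

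Other negative regulators of JAK-STAT and KIT signalling (19 genes) rose in 7 cases and fell in none with ME induced at E10.5 against WT. Their median was 0.50 against -0.10 over all genes, of which 12.3% passed. Dusp6, an ERK phosphatase, rose 1.12 (81.8 to 177 CPM, adjusted p = 0.000311) and Ptpn1, a phosphatase of JAK2, rose 0.71 (adjusted p = 0.00712), both by edgeR. The 7 became 2 under plain totals, 2 with no filter, 11 by limma voom, 2 without P28 WT library 1, 1 without P28 WT library 2, and 4, 4 and 3 without library 1, 2 or 3 of ME induced at E10.5. In RLT Vav Txp against ME induced at E10.5, 7 fell and none rose. The median was -0.39 against 0.12 over all genes, of which 17.9% passed. Dok2, an adaptor that damps kinase signals, was at -1.26 and Sh2b3 (LNK), which limits JAK2, at -1.08. The same macrophage and LSK sums moved with this comparison, and their part was not tested. Limma voom called 12 of the list. Of the 8 SOCS-box ligase partners, Eloc (0.73) and Rbx1 (0.50) rose in that comparison, calls that both ended in 6 of the 8 fits without 1 library.

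Among 25 upstream receptors, the ME group induced at E10.5 had 1 higher and 1 lower against WT at P28, a smaller share than the 12.3% of all genes that passed, and 1 to 6 called over the alternatives. Fits without P28 WT library 2 or 3, or without library 1 or 3 of ME induced at E10.5, called 1, and the fit without P28 WT library 4 called 4. Il9r, the interleukin-9 receptor, rose from 2.01 to 36.1 CPM (4.15, adjusted p = 0.00192) and Insr, the insulin receptor, fell by 0.90 on the log2 scale (adjusted p = 0.0185), both by edgeR. RLT Vav Txp against WT had 3 higher and 1 lower, where 4.12% of all genes passed. Flt3, a receptor of lymphoid-primed progenitors that SOCS6 binds, was at 222 against 1170 CPM (-2.40). Flt3 is also in the LSK marker list, whose sum was 2820 to 3830 CPM in RLT Vav Txp and 5070 to 5630 in P28 WT. Ghr, the growth hormone receptor that SOCS2 restrains, was at 16.2 against 2.40 CPM (2.75), and Epor, the erythropoietin receptor that CIS binds, at 22.7 against 4.52 (2.33). Epor is also in the erythroid marker list, whose sum was 1240 to 2500 CPM in RLT Vav Txp and 507 to 673 in P28 WT. With age, 3 receptors rose and 5 fell in ME, where Csf3r, the G-CSF receptor, rose 0.90 and Il7r, the interleukin-7 receptor, fell by 2.79 on the log2 scale, and 3 rose and 3 fell in WT, where 18.2% and 7.68% of all genes passed. The split in ME was 1 higher and 5 lower under RLE factors and 2 and 5 under plain totals. No filter on low counts left 5 receptors called in ME, as did leaving out P0 ME library 3 or library 2 of ME induced at E10.5. In WT, 3 were called without P28 WT library 2 and 1 in the fit of the 2 groups alone. Without both P0 libraries numbered 1, 10 were called in ME and 9 in WT. Between the induction times edgeR called 0 of the 85 distinct list genes (4 at unadjusted p under 0.05, 1 by DESeq2, 6 by limma voom).

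The genes nearest to Socs2 in pattern were sought over 24 libraries and 11312 candidate genes, by the root mean square difference of log2 CPM in SD units. They were Fam219a (0.664), Ccn3 (0.675), Idh3b (0.715), Ifitm1 (0.723) and Fer (0.757). Ccn3, a matrix-associated growth regulator, had a mean of 8.26 CPM over the P0 WT libraries and of 0.386 with ME. Ifitm1, an interferon-induced membrane protein, had 704 and 224. These libraries include the contrast that chose Socs2, so the likeness is a description. Of the other members Cish lay nearest to Socs2, at 0.924, with 103 genes nearer. For Cish the nearest were Pcca (0.52), Neu3 (0.522) and Oxct1 (0.536), for Socs1 Galt (0.779), Sertad1 (0.782) and Sft2d1 (0.793), and for Socs3 Epb41l4a (0.661), Usp34 (0.673) and Klf12 (0.679).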

How the data were processed

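The authors deposited 1 table of raw read counts per Ensembl gene for 24 libraries. STAR 2.7.9a, Subread and featureCounts 2.0.3 with GRCm38 are named per the submitters' processing notes, while their settings, strand and handling of reads with several matches are not given in the sources used here. RNA came from a Qiagen RNeasy Plus kit and libraries from Clontech SMARTer chemistry, per the labels' protocols. The 55774 entries held 55487 distinct IDs, and 287 repeats with identical counts were dropped. Coordinates and exon lengths are from GENCODE M21 (GRCm38), which held 55141 of the IDs.

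Genes were kept by filterByExpr at a minimum count of 10, leaving 23059. After TMM scaling, the robust quasi-likelihood model of edgeR 4.0.16 (R 4.3.3) was fitted to all 24 libraries together, with 18 residual degrees of freedom, and p-values were Benjamini-Hochberg adjusted over all genes in each of the 7 tested comparisons, with calls under 0.05. Fits were tested on simulated data. Alternatives were RLE factors, DESeq2 1.42.0, limma 3.58.1 (voom with quality weights), no filter, a filter of 10 counts in 12 libraries, only the 2 groups compared, a replicate block on the 20 libraries that carry numbers (and the same fit with no block), and each library left out. Chosen after seeing the data were plain library totals and a fit that drops both P0 libraries numbered 1. The members and lists were chosen with earlier results of these data known, and some list genes are not reported here. Named by rule were all 8 members, at most 4 called genes with the smallest adjusted p per pathway list and comparison, and the nearest genes by pattern (mean log2 CPM of at least 1, without predicted gene models and sex-linked markers). Figures were drawn with Python 3.11.15 and matplotlib 3.10.9.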

Additional observations from a re-analysis of the deposited data

Results flagged for a closer look

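Within groups of 4, the highest or lowest library was set against the others by Dixon's gap ratio, at its 95% critical value. Of 48 groups (8 genes in 6 groups), 2 passed it, where chance gives about 1 in 20. Socs3 in P28 ME induced at E10.5 was 21.0 CPM in library 3, and the others went down to 8.85 (ratio 0.868, group mean 12.4 ± 5.71). Socs4 in P28 ME induced at P0 was 13.8 CPM in library 2 against 10.8 to 11.1 in the others (ratio 0.909).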

How the results depend on the processing

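There were 1080 alternative values of the 64 member fold changes. Of these, 992 were counted as the same in direction and side of the threshold. Another 68 were counted as changed in sign, 18 became calls and 2 lost a call. For ME against WT at P0, which had no test, all values went into the 992. Those of them that changed sign are given below. Each call is named in the text where it changed. The counts of all genes called moved by over 1.5 times as follows, and the cause was not tested.

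For ME induced at E10.5 against WT at P28 (2827 genes, 0 members), limma voom called 6492 genes and 1 member, no filter 1767 genes, and the 2 groups alone 6296 genes and 1 member. With induction at P0 against WT (362 genes, 0 members), DESeq2 called 1870 genes, limma voom 4998 and 1 member, no filter 206, the filter in 12 libraries 601, and the 2 groups alone 5196 and 1 member. Between the induction times (11 genes, 0 members), DESeq2 called 88 genes, limma voom 2326 and 2 members, and the 2 groups alone 1147 and 2 members. For RLT Vav Txp against WT (950 genes, 0 members), DESeq2 called 1639 genes and limma voom 1 member. Against ME induced at E10.5 (4122 genes, 2 members), limma voom called 8053 genes and 4 members. For age in WT (1771 genes, 1 member), DESeq2 called 2758 genes and 2 members, the 2 groups alone 481 genes and 0 members, and the fit without both P0 libraries numbered 1 called 2797 genes.

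The labels do not say that the replicate numbers pair the samples. For P0 ME and WT the correlations of same-numbered deviations were 0.66, 0.0531, 0.371 and 0.464. There, P0 ME libraries 1, 3 and 4 correlated most with the WT library of the same number, and library 2 with WT library 4. In no comparison were all same-numbered correlations over 0.1. With the replicate block on the 20 numbered libraries, 946 genes were called for ME induced at P0 against WT (802 with no replicate block) and 2 members with age in WT, where Socs4 passed (adjusted p = 0.0367, edgeR), and the value of Socs7 with age in ME became 0.01. RLT Vav Txp titles carry no replicate numbers shared with the other groups, so no block was fitted there.

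Leaving out 1 library gave, in genes called, 893 to 2723 for ME induced at E10.5 against WT, 7 to 649 for ME induced at P0 against WT, 4 to 15 between the induction times, 2061 to 5212 for RLT Vav Txp against ME induced at E10.5, 1137 to 2473 for age in WT (1 to 2 members) and 2687 to 4735 for age in ME.

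The largest differences that changed sign were Socs1 with age in WT, at -0.51, and Socs2 in RLT Vav Txp against ME induced at E10.5, at 0.46. With ME induced at E10.5 against WT, Socs4 was -0.01 under RLE, DESeq2, the filter in 12 libraries and the 2 groups alone, and under plain totals Socs3 was -0.03, Socs4 -0.05 and Cish -0.00. Socs4 was -0.01 for ME induced at P0 against WT under RLE and DESeq2, and between the induction times 0.01 under both, 0.03 with no filter, 0.02 with the filter in 12 libraries, 0.05 in the 2 groups alone and 0.10 under plain totals, where Socs5 was 0.00 and Socs6 0.02. For RLT Vav Txp against WT, Socs4 was 0.04 and Socs7 0.00 by limma voom, and Socs4 0.00 with no filter. With age in WT, Socs1 was 0.02 by limma voom, Socs6 0.11 under plain totals and 0.07 without both P0 libraries numbered 1, where Socs3 was -0.11. Socs7 with age in ME was 0.12 by limma voom. For ME against WT at P0, the other fits took Socs1 from -0.29 to as high as 0.18. They took Socs6 there from 0.07 to as low as -0.02.

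Values whose sign turned as 1 library was left out ran as follows. Against WT, ME induced at E10.5 had Socs3 -0.27 to 0.24, Socs4 -0.09 to 0.23, Cish -0.05 to 0.26, Socs7 -0.28 to 0.07 and Socs1 -0.21 to 0.08. Socs4 ran -0.09 to 0.25 for ME induced at P0 against WT and -0.10 to 0.04 between the induction times. For RLT Vav Txp against WT: Socs2 -0.39 to 0.34, Socs4 -0.18 to 0.20 and Socs7 -0.28 to 0.14, and against ME induced at E10.5: Socs7 -0.18 to 0.27, Socs2 -0.06 to 0.73 and Socs4 -0.25 to 0.12. With age in WT: Socs3 -0.15 to 0.24 and Socs6 -0.15 to 0.11, and in ME: Socs7 -0.26 to 0.33. For ME against WT at P0, Socs6 ran -0.09 to 0.14.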
